A study of Rattus norvegicus with 6 samples.

Results

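The genes described here are 10 targets of NRF2, the transcription factor of the antioxidant response, in the liver of rats given little protein. They are Nqo1, Gclc, Gclm, Txnrd1, Srxn1, Hmox1, Gsr, Akr7a3, Ugdh and Ephx1. Their probe sets were taken by name, as every probe set whose platform annotation gives exactly 1 gene symbol and that symbol is in the list, which gave 14 of the 31042 probe sets tested and 10 of the 14217 genes. The 2 groups were male Wistar rats on a low-protein diet (5P, 3 arrays) and male Wistar rats on the control diet (15P, 3 arrays), all labelled as 6 weeks old. Every rat had first been trained for 4 days to take the control diet in a daily window. Each then ate its assigned diet for 8 hours and went without food for 16 hours before the liver was taken, so both groups were fasted, and the 5P diet had the same energy content. The labels do not say whether each array is a separate animal or a pool, so a p-value covers no more than the variation among the 6 arrays. Values are log2 RMA intensities of Affymetrix arrays, which can be compared between arrays for 1 probe set but not between probe sets.

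NRF2, encoded by Nfe2l2, is made continuously and destroyed as long as KEAP1 holds it to a CUL3 and RBX1 ubiquitin ligase. Oxidants and electrophiles modify KEAP1, NRF2 then accumulates, pairs with a small MAF protein and binds antioxidant response elements near its target genes. In liver these targets make and recycle glutathione and thioredoxin, reduce quinones and aldehydes, hydrolyse epoxides and supply UDP-glucuronate for conjugation. Glutathione is built from glutamate, cysteine and glycine, so its synthesis also draws on dietary amino acids. Several members are induced by other factors as well: Nqo1 by the aryl hydrocarbon receptor AHR, and Ephx1 by the drug-sensing receptors CAR and PXR.

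The core of the antioxidant response element is commonly written TGACNNNGC, and the promoter windows of the members were searched for these letters on both strands. The windows are RefSeq sequence of build GRCr8, from 250 bases before to 50 bases after an annotated start, and 8 of the 10 members had 10 windows in all; Hmox1 and Gsr had no window in the table. A match was present in 4 windows of 4 members, Gclm, Txnrd1, Ugdh and Ephx1, beside 12.1% of all 33469 windows of the same length. Since the members were chosen as NRF2 targets and NRF2 binds such elements near its targets, that share is no independent comparison. Sequence outside the windows was not searched, so a window without a match does not mark a gene without an element. Each line gives 49 bases of the gene's own strand, 5′ to 3′, with the match in capitals; it reads TGACNNNGC on the opposite strand in all 4.
Gclm, chr2:213031943-213031991, plus strand, match ending 164 bases before the start: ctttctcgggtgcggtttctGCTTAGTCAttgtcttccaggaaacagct
Txnrd1, chr7:22755954-22756002, minus strand, match ending 70 bases before the start: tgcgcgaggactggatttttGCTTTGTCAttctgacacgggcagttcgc
Ugdh, chr14:43202291-43202339, plus strand, match ending 199 bases before the start: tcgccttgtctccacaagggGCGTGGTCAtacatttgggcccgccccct
Ephx1, chr13:95263146-95263194, minus strand, match ending 49 bases before the start: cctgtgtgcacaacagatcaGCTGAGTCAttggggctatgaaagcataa
The Ephx1 match overlaps a TGANTCA site, the AP-1 motif, which 7.33% of all windows hold. For Txnrd1 and Ephx1, which have 2 windows each, only the window shown held a match. These are letter matches, not measured binding sites.

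No member probe set passed the test between diets, although most read higher in low-protein livers. Of the 14 probe sets 0 had an adjusted p under 0.05 (limma, Benjamini-Hochberg over all probe sets), beside 0.132% of all probe sets, so a count of 0 is near the background. At an unadjusted p under 0.05 there were 5, all with higher means in low-protein livers, beside 7.83% of all probe sets in that direction. In 5 probe sets every low-protein array lay above every control, beside 12.5% of all probe sets. Both for Gclc were among them, as was a dim Srxn1 probe set at the 15.9 percentile of mean intensity. The brightest Srxn1 probe set had overlapping diets. By gene, 8 of 10 had a higher mean in low-protein livers and 2 a lower one, Gclm and Hmox1, and the median log2 fold change of the 10 was 0.33. Over all genes 57.6% had a higher mean and the median was 0.03. The count of 8 was the same with the arrays centred on their medians or 75th percentiles and with quantile normalization. It was 9 without low-protein replicate 3, where Gclm turned to a higher mean, and 9 without control replicate 1 or control replicate 2, where Hmox1 or Gclm did. All 3 low-protein arrays lay above all 3 control arrays for Gclc, Gsr and Akr7a3, 3 of 10 genes, beside 12.8% of all genes.

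**Figure D1:**
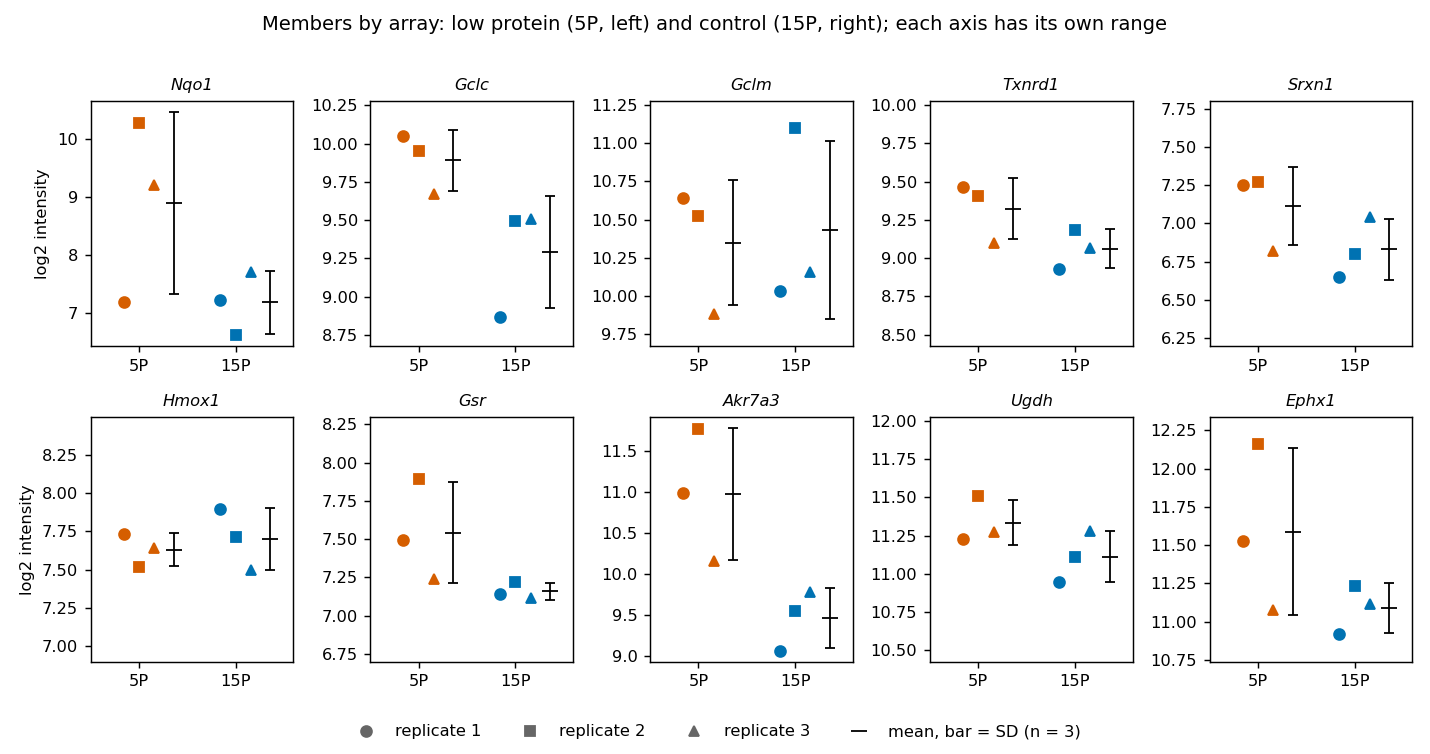
Log2 intensity (vertical axis, a separate range per gene) of the 10 members on each array, with low-protein livers (5P, orange) left of control livers (15P, blue); symbols mark replicates and the black bars the mean and SD of 3 arrays. Gclc, Gsr and Akr7a3 have no overlap between diets, while Nqo1 spreads from 7.19 to 10.28 in low-protein livers.

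Glutathione synthesis was represented by the subunits of glutamate-cysteine ligase, the rate-limiting enzyme, and their values did not run in parallel. Gclc (gene ID 25283), the catalytic subunit, read 10.05, 9.95 and 9.67 in low-protein livers and 8.87, 9.50 and 9.50 in control livers on its brighter probe set. The diets did not overlap, control replicate 1 being the lowest array. The log2 fold change was 0.60 (SE 0.184, 95% interval 0.18 to 1.02, adjusted p = 0.19 by limma), and 0.39 with control replicate 1 left out. The second Gclc probe set read 8.21, 8.53 and 8.00 in low-protein livers against 7.34, 7.57 and 7.82 in control livers, and its log2 fold change was 0.67 (SE 0.164, adjusted p = 0.132). Both probe sets thus separated the diets, at 1.52-fold and 1.59-fold, without passing over all probe sets.

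Gclm (gene ID 29739) encodes the modifier subunit, which makes the ligase more efficient. It read 10.64, 10.52 and 9.88 in low-protein livers and 10.03, 11.10 and 10.16 in control livers. The diets overlapped throughout, the highest array being a control and the lowest a low-protein one. The log2 fold change was -0.08 (SE 0.294), with a 95% interval of -0.76 to 0.59 that ended just under the Gclc estimates; the difference between the subunits was not tested. Gsr (gene ID 116686), glutathione reductase, which returns oxidised glutathione to its reduced form with NADPH, read 7.49, 7.90 and 7.24 in low-protein livers and 7.14, 7.22 and 7.11 in control livers. The control arrays lay close together (SD 0.05), and the lowest low-protein array was above them by a small margin. Its log2 fold change was 0.38 (SE 0.155, 95% interval 0.03 to 0.74, adjusted p = 0.29), and it was 0.21 with low-protein replicate 2 left out.

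The thioredoxin and peroxiredoxin branch had smaller differences. Txnrd1 (gene ID 58819), the cytosolic thioredoxin reductase, read 9.47, 9.41 and 9.10 in low-protein livers and 8.93, 9.18 and 9.07 in control livers, a log2 fold change of 0.26 (SE 0.122, 95% interval -0.02 to 0.54). Low-protein replicates 1 and 2 lay above every control and replicate 3 lay among them. On the dimmer Txnrd1 probe set the log2 fold change was 0.11 (SE 0.147), and low-protein replicate 3, at 7.41, was the lowest of the 6 arrays. Srxn1 (gene ID 296271), sulfiredoxin, repairs overoxidised peroxiredoxins. Its brightest probe set read 7.25, 7.27 and 6.82 in low-protein livers and 6.65, 6.80 and 7.04 in control livers, 0.28 higher on average (SE 0.151, adjusted p = 0.407), and 0.43 with low-protein replicate 3 left out. Again replicates 1 and 2 of the low-protein diet were above all controls, and replicate 3 was not. The other Srxn1 probe sets were dim, at the 32.1 and 15.9 percentile of mean intensity over all probe sets, and differed between diets by 0.12 and 0.14 on the log2 scale (SE 0.0874 and 0.0935).

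Among the detoxifying enzymes lay the largest differences of the group. Akr7a3 (gene ID 26760), an aldo-keto reductase that in rat reduces the dialdehyde of aflatoxin, read 10.99, 11.77 and 10.16 in low-protein livers and 9.07, 9.55 and 9.78 in control livers. The diets did not overlap, and the mean was 10.97 ± 0.81 in low-protein livers and 9.47 ± 0.36 in control livers (SD, n = 3 each). The difference was 2.84-fold, a log2 fold change of 1.51 (SE 0.361, 95% interval 0.68 to 2.33), with the smallest adjusted p of the members (0.126, limma). It ranked 14 of all probe sets by log2 fold change, and Nqo1 ranked 12. Leaving out low-protein replicate 2 gave 1.11 and leaving out replicate 3 gave 1.92, neither past the test (adjusted p = 0.201 and 0.103 by limma; 0.086 to 0.294 over 15 alternative settings).

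Nqo1 (gene ID 24314) encodes the quinone reductase that is widely used as a marker of NRF2 activity, and it had the widest spread of the members in low-protein livers. It read 7.19, 10.28 and 9.22 in low-protein livers and 7.22, 6.62 and 7.71 in control livers. Low-protein replicate 1 was thus among the controls, while replicates 2 and 3 stood 3.10 and 2.03 above the control mean. The mean difference was 1.71 on the log2 scale (SE 0.668, 95% interval 0.18 to 3.24, adjusted p = 0.276). It was 1.02 with low-protein replicate 2 left out and 2.57 with replicate 1 left out. Its SD in low-protein livers, 1.57, lay at the 99.9 percentile of all genes, and its control SD, 0.54, at the 98.5 percentile, next to that of Gclm (0.58).

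Ephx1 (gene ID 25315), the microsomal epoxide hydrolase, read 11.53, 12.16 and 11.08 in low-protein livers and 10.92, 11.24 and 11.11 in control livers. Replicates 1 and 2 of the low-protein diet were above all controls and replicate 3 was among them. Its log2 fold change of 0.50 (SE 0.24, 95% interval -0.05 to 1.05) was 0.21 when low-protein replicate 2 was left out and 0.75 when replicate 3 was. Ugdh (gene ID 83472), which oxidises UDP-glucose to UDP-glucuronate, read 11.23, 11.51 and 11.27 in low-protein livers and 10.95, 11.11 and 11.28 in control livers. Only low-protein replicate 2 lay above every control, and the log2 fold change was 0.22 (SE 0.119, 95% interval -0.05 to 0.49), or 0.14 with either low-protein replicate 2 or control replicate 1 left out.

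**Figure D2:**
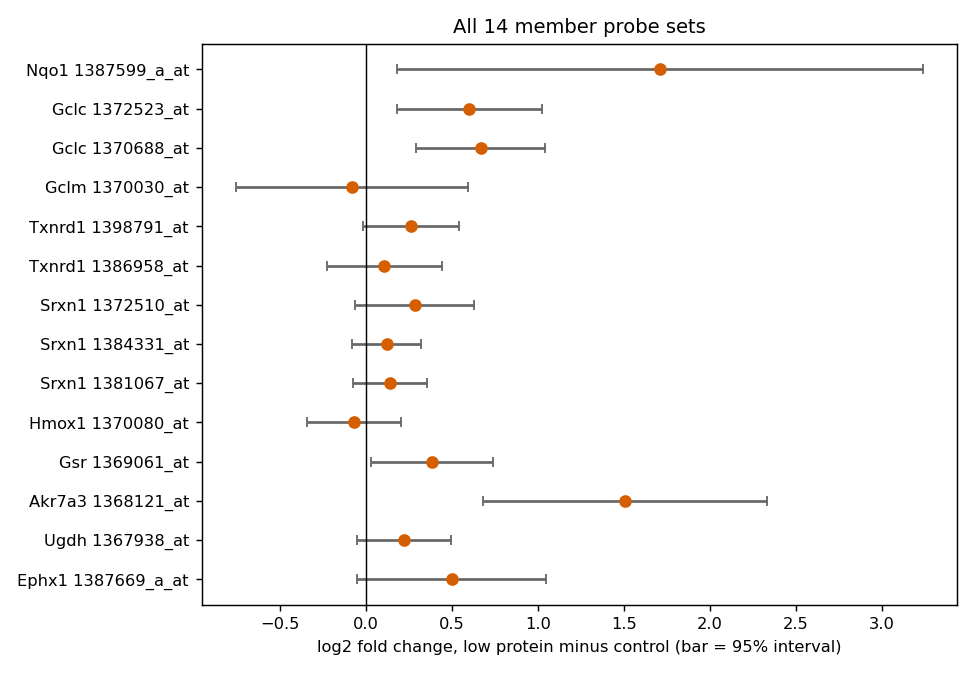
Log2 fold change of low protein minus control (horizontal axis) for the 14 member probe sets, with bars for the 95% interval of the moderated model. The intervals of Nqo1, both Gclc probe sets, Gsr and Akr7a3 lie above 0 before adjustment. Those of all other probe sets span it, for Gclm, Hmox1, Txnrd1, Srxn1, Ugdh and Ephx1.

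Hmox1 (gene ID 24451), heme oxygenase, opens the heme ring and is repressed by BACH1 as well as induced by NRF2. It read 7.73, 7.52 and 7.64 in low-protein livers and 7.90, 7.71 and 7.49 in control livers. The diets overlapped, and the log2 fold change was -0.07 (SE 0.12, 95% interval -0.34 to 0.20). That interval lies below the point estimates of Nqo1, Akr7a3 and Gclc. It overlaps the intervals of Nqo1 (0.18 to 3.24) and the brighter Gclc probe set (0.18 to 1.02), and the differences between these genes were not tested. In liver Hmox1 is also made by Kupffer cells, the resident macrophages, and in whole tissue fewer cells of a type and less RNA per cell cannot be told apart. The summed intensity of 8 measured Kupffer cell markers ran from 4525 to 6231 in low-protein livers and from 3895 to 4673 in control livers. It was highest on low-protein replicate 3. By gene, 7 of the 8 Kupffer cell markers had higher means, beside 57.6% of all genes. Their median log2 fold change was 0.19, and 0.06 with low-protein replicate 3 left out. Red blood cells bring the heme that the enzyme degrades, and 5 measured red blood cell markers summed to between 4053 and 4323 in low-protein livers, above 2865 to 3123 in control livers. Such sums follow the brightest probe sets. By gene, 4 of the 5 had higher means, among them Slc4a1 at 0.14, and Epb42 had -0.06. Of the 5, 2 lay wholly above the controls, beside 12.8% of all genes. The part of these cells in the Hmox1 value was not tested.

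The order of the arrays within a diet differed between members. Low-protein replicate 2 was the highest low-protein array for 6 of 10 members and replicate 1 for the other 4, so replicate 3 was highest for 0, although 42.4% of all genes had their highest low-protein value there. Replicate 3 was the lowest low-protein array for 7 of 10 members, beside 28.1% of all genes. Among controls, replicate 1 was the lowest array for 7 of 10 members, beside 30% of all genes. The mean of the 10 members stood 0.42, 0.90 and 0.28 above the control mean on low-protein replicates 1, 2 and 3, and the control arrays stood at -0.16, 0.07 and 0.09. These counts describe 6 arrays and carry no test.

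**Figure D3:**
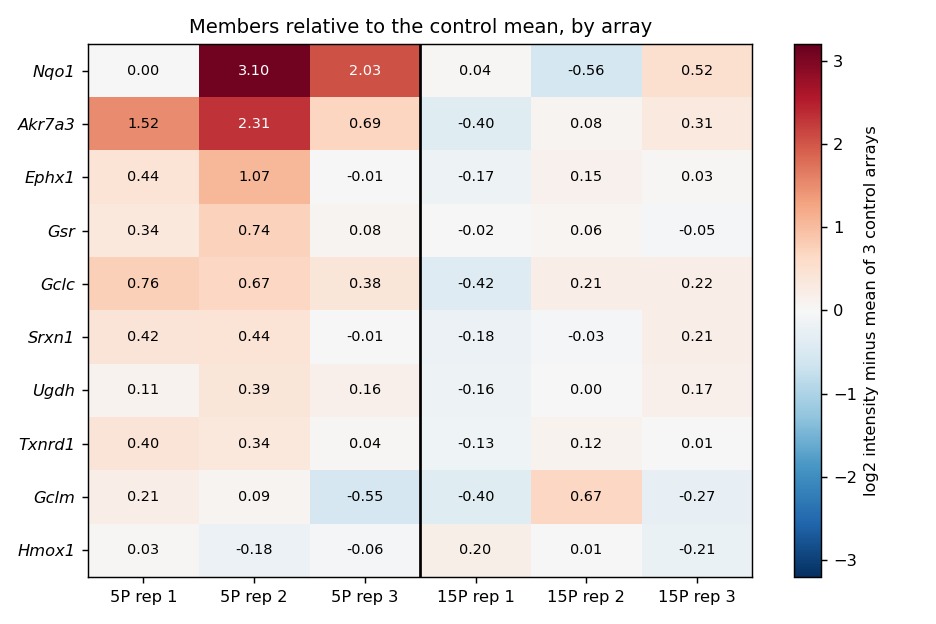
Log2 intensity of each member minus its mean over the 3 control arrays, by array (colour and printed value), with low-protein arrays left of the line. Low-protein replicate 2 holds the largest values, 3.10 for Nqo1 and 2.31 for Akr7a3, and Gclm and Hmox1 at the bottom show no common direction.

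Across the 6 arrays Gsr, Akr7a3 and Ephx1 were the most alike, with Pearson correlations of 0.94 for Gsr with Akr7a3, 0.98 for Gsr with Ephx1 and 0.93 for Akr7a3 with Ephx1. Gclc and Txnrd1 had 0.91. Nqo1 had 0.80 with Ugdh and 0.28 with Txnrd1, Gclm had between -0.36 and 0.56 with the others, and Hmox1 had negative values with all 9. These correlations are over the same 6 arrays, include the difference between diets and are given as a description. Of the 4 members whose windows hold the TGACNNNGC match, Ephx1, Txnrd1 and Ugdh had correlations of 0.93, 0.88 and 0.87 with Akr7a3, which has none in its window, and Gclm had 0.21. Srxn1, Gclc and Nqo1, whose windows hold no match either, had 0.90, 0.88 and 0.68 with Akr7a3. Sequence outside the windows was not searched, and a relation between match and correlation was not tested.

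The genes that control NRF2 did not pass the test in either direction (0 of 10 measured, beside 0.183% of all genes). At an unadjusted p under 0.05 there were 2 of the 10 (limma), beside 16.3% of all genes. Nfe2l2 (NRF2 itself) read 8.94, 9.27 and 8.80 in low-protein livers and 9.50, 9.03 and 9.55 in control livers. Its log2 fold change was -0.36 (SE 0.172, adjusted p = 0.35), a lower mean, while most of its targets had higher ones. Keap1, its inhibitor, had -0.13 (SE 0.108), and the dimmer Keap1 probe set had -0.26. Nfe2l1, a related factor that also binds antioxidant response elements, read 7.71, 7.81 and 8.14 in low-protein livers and 7.40, 7.53 and 7.52 in control livers, 0.40 higher on average (SE 0.123, adjusted p = 0.179), with 0.06 and 0.20 on its other probe sets. Bach1, the repressor, had 0.26 (SE 0.086) with no overlap between diets, beside 12.8% of all genes wholly above the controls. Sqstm1, which takes KEAP1 into autophagy and is itself a target, had -0.19 (SE 0.0896); its 4 probe sets ran from -0.41 to 0.30. Over the 10 regulators 3 had higher means and the median was -0.05. With the arrays centred on their medians these were 3 and -0.08. Centring on the 75th percentiles gave 5 higher means and a median of -0.004, and quantile normalization gave 5 and -0.014.

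Other reported NRF2 targets split, and the only one to pass the test fell. Of 22 measured genes 17 had higher means (16 after median centring), beside 57.6% of all genes. The median log2 fold change was 0.12. None passed the test with a higher mean and 1 passed with a lower mean. Over all genes 0.183% passed in either direction. Abcc2, the canalicular pump that exports glutathione and glucuronide conjugates into bile, read 9.87, 9.42 and 9.88 in low-protein livers and 10.84, 11.36 and 11.19 in control livers. All low-protein arrays were below all controls, as for 10.1% of all genes. It fell 2.65-fold, or -1.41 on the log2 scale (SE 0.171, adjusted p = 0.0354, limma over genes). Abcc2 passed in 11 of 17 alternative settings. It did not pass without low-protein replicate 1, 2 or 3 (adjusted p = 0.076, 0.0825 and 0.0687), nor without control replicate 2 or 3 (0.0948 and 0.0561), nor with the replicate number as a block (0.127). Its log2 fold change stayed between -1.55 and -1.25.

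Gsta3, a glutathione transferase, read 6.85, 8.30 and 6.71 in low-protein livers and 4.38, 4.94 and 5.54 in control livers, and it was highest on low-protein replicate 2 and lowest on control replicate 1, as Akr7a3 was. Its adjusted p was 0.084 over genes (limma). Taldo1, transaldolase of the pentose phosphate pathway, differed by 0.59 on the log2 scale (SE 0.148, adjusted p = 0.138), and Pgd, which makes NADPH in the same pathway, had -0.89 (SE 0.204, adjusted p = 0.117). Neither had overlapping diets, beside 12.8% of all genes wholly above the controls and 10.1% wholly below.

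The enzymes around the members gave no call. Of 20 measured enzymes of glutathione, thioredoxin and peroxide removal, 0 passed, beside 0.183% of all genes. An unadjusted p under 0.05 (limma) was found for 2, beside 16.3% of all genes, 14 had higher means and the median was 0.13. Gss, which completes glutathione after the ligase, read 9.05, 9.73 and 8.79 in low-protein livers and 7.82, 8.30 and 8.55 in control livers. The diets did not overlap, control replicate 1 was lowest and low-protein replicate 2 highest, and the log2 fold change was 0.97 (SE 0.262, adjusted p = 0.155). The mitochondrial thioredoxin Txn2 had 0.28 (SE 0.0825), the mitochondrial glutaredoxin Glrx2 had 0.23 (SE 0.105) and Ggt1, which splits glutathione outside the cell, had 0.25 (SE 0.114), each with no overlap between diets. Genes were named by smallest p, which favours those without overlap. Of the 20 enzymes 5 lay wholly above the controls, beside 12.8% of all genes.

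Heme and iron genes, the neighbours of Hmox1, included 9 measured genes, of which 0 passed and 4 had higher means. An unadjusted p under 0.05 (limma) was found for 2, beside 16.3% of all genes. Tfrc, the transferrin receptor, read 10.24, 10.16 and 10.43 in low-protein livers and 8.97, 8.88 and 9.65 in control livers, a log2 fold change of 1.11 with SE 0.196 that did not pass (adjusted p = 0.073, limma). With control replicate 3 left out it was 1.35 and passed (adjusted p = 0.0142), and the adjusted p ranged up to 0.202 under the other alternatives. Blvra, which reduces the biliverdin made by heme oxygenase, had 0.39 (SE 0.0947, adjusted p = 0.132), the constitutive isoform Hmox2 had -0.19 (SE 0.0917), and the iron exporter Slc40a1 had -0.26 (SE 0.15). Hbb and Alas2, which mark red blood cells and their precursors, were at 0.48 and 0.43 (SE 0.0835 and 0.0981). Of the 5 measured red blood cell markers, these were the 2 with no overlap between diets. The part of red blood cells in the values of Tfrc and Blvra was not tested. Around Ugdh, 0 of 5 measured genes of UDP-glucuronate supply and use passed and 0 had an unadjusted p under 0.05 (limma). Over all genes these shares were 0.183% and 16.3%. The glucuronosyltransferase Ugt2b1 had -0.48 (SE 0.258), Ugp2, which makes UDP-glucose, 0.17 (SE 0.161), Ugt2b7 0.07 and Uxs1, which consumes UDP-glucuronate, -0.06.

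Genes of the other receptors that induce some members were described beside them. Over all genes 16.3% had an unadjusted p under 0.05 and 0.183% an adjusted p under 0.05 (limma). CAR, PXR and their targets had 0 of 12 past the test, 1 at an unadjusted p under 0.05, 6 higher means and a median of 0.00. The carboxylesterase Ces2c had -0.42 (SE 0.105), the efflux pump Abcb1a 0.23 (SE 0.127), Cyp2b3 -0.11 (SE 0.0903) and Por, the reductase that serves cytochromes P450, 0.18 (SE 0.15). AHR and its targets had 0 of 8 past the test by gene, 3 at an unadjusted p under 0.05, and a median of -0.02. Cyp1a1 and Cyp1a2, the standard AHR targets, had -0.48 and -0.44 (SE 0.175 and 0.224). The lowest reading of each, 4.21 and 9.45, was on low-protein replicate 2, where Nqo1 was highest. Cyp1a1 was dim and left out by the filter at the 50th percentile of mean intensity. The part of AHR in the Nqo1 values was not tested. The AHR repressor Ahrr had 0.33 (SE 0.0864) on a dim probe set. Tiparp, another AHR target, had -0.38 (SE 0.132) on the probe set that stands for it. Its dimmer probe set fell by 0.78 on the log2 scale (adjusted p = 0.0438 over all probe sets, limma).

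**Figure D4:**
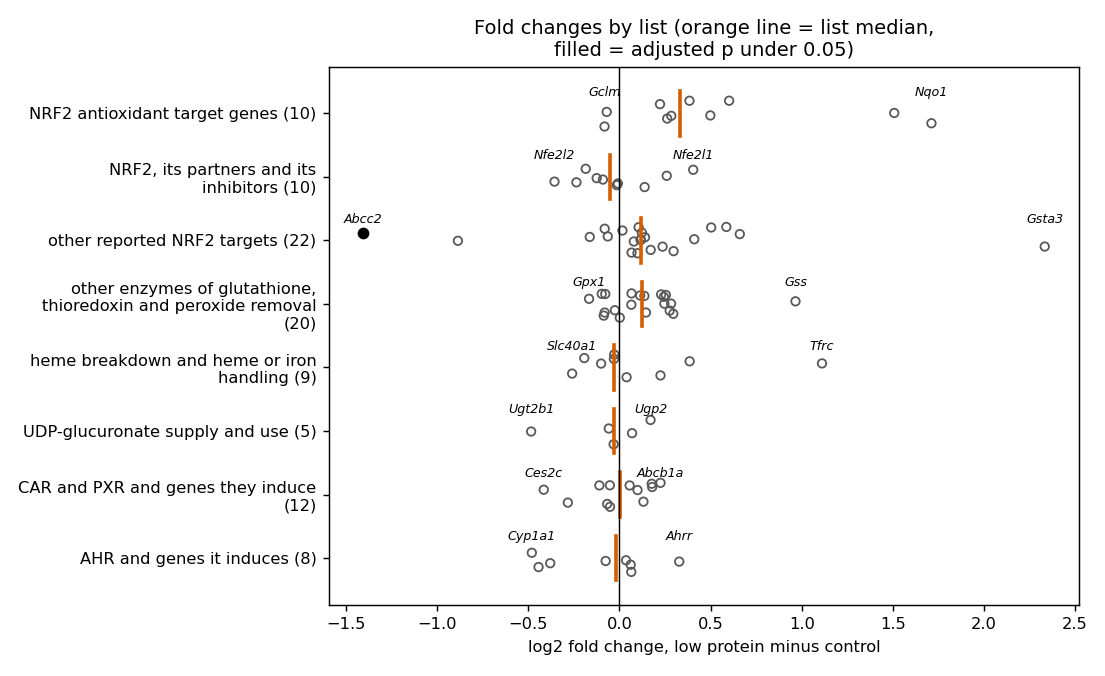
Log2 fold change of low protein minus control (horizontal axis) for the members and 7 related lists, 1 point per measured gene, with the list median as an orange line and the extreme genes named. The only filled point, past the adjusted threshold, is Abcc2 at -1.41; the member median is 0.33.

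The genes most like Nqo1 over the 6 arrays were taken by Pearson correlation among 680 genes that ranged over at least 1 on the log2 scale. They were Cmss1 (0.97), Krt10 (0.96), Haus4 (0.95), Poteml2 (0.93) and Slc50a1 (0.93), and none of them is in the lists of NRF2 targets used here. Krt10, a keratin best known from skin, read 4.05, 7.28 and 7.07 in low-protein livers and 3.81, 3.98 and 4.37 in control livers. Low-protein replicate 1 was thus among the controls for Krt10, as for Nqo1, and replicates 2 and 3 lay far above. Slc50a1, a sugar transporter, read 8.37, 9.16 and 8.57 in low-protein livers and 7.89, 7.81 and 8.10 in control livers, with no overlap. With 6 arrays and so many candidates, high correlations are a description only, and none of the 5 passed the test between diets (adjusted p = 0.141 to 0.298, limma).

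**Figure D5:**
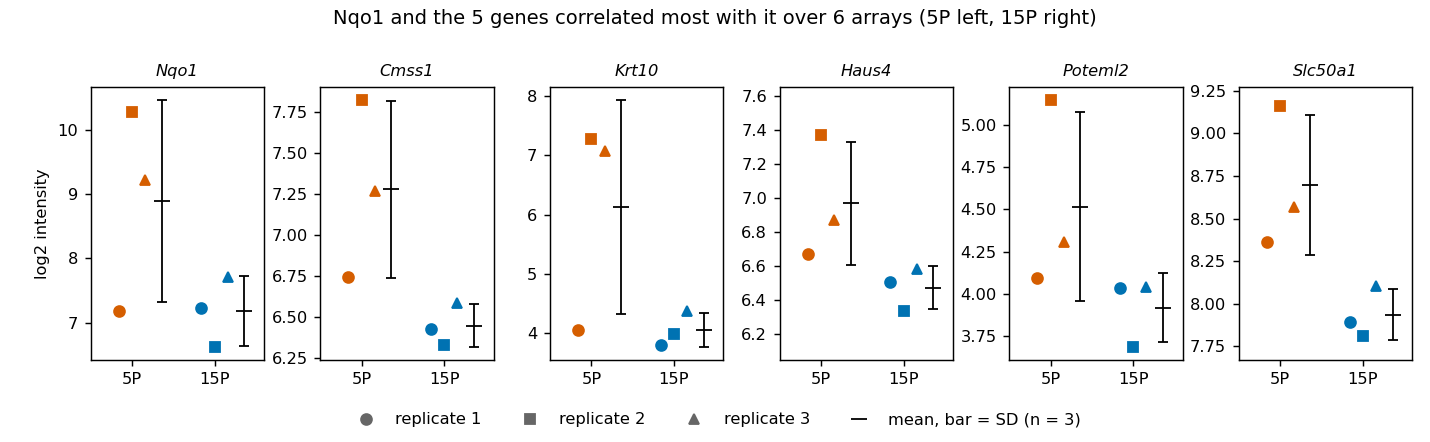
Log2 intensity (vertical axis, a separate range per gene) on each array of Nqo1 and the 5 genes correlated most with it, low-protein livers (5P) left of control livers (15P), with mean and SD of 3 arrays. Krt10 repeats the pattern of Nqo1, with low-protein replicate 1 at 4.05 and replicates 2 and 3 at 7.28 and 7.07.

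The tissue label was checked against hepatocyte markers. Of 10 listed 9 were measured, with mean log2 intensities of 9.27 (Tat) to 14.40 (Alb) in low-protein livers and 9.61 to 14.40 in control livers. Alb read 14.40, 14.40 and 14.39 in low-protein livers and 14.38, 14.40 and 14.40 in control livers. Of the 9 markers 0 passed, beside 0.183% of all genes. Markers of bile duct, endothelial and stellate cells, neutrophils and lymphocytes also had 0 genes past the test among 5, 4, 7, 3 and 4 measured. The summed intensities of these 5 lists overlapped between diets; bile duct markers summed to 212 to 294 in low-protein livers and 263 to 425 in control livers. On the first principal component control replicate 3 lay nearer to the low-protein arrays (-10.11) than control replicates 1 and 2 did (-26.91 and -22.45); without it, the member median was 0.38 and 0 member probe sets passed.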

How the data were processed

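Liver RNA of 6 samples was measured on Affymetrix rat arrays. For every array the authors deposited an intensity per probe set, made with RMA per the submitters' processing notes; its version is not given in the sources used here. Since RMA equalises the arrays, a shift common to most genes is removed. The values ran from 3.61 to 21668, were read as linear, and log2 was taken. Samples were grouped by title. Of 31099 probe sets 57 controls were left out, and no intensity filter was used. Names come from the platform annotation, in which 20826 probe sets had 1 symbol, 436 several and 9780 none here; 20758 gene IDs matched RefSeq (GRCr8).

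Low protein minus control was fitted with limma 3.58.1 in R 4.3.3 (lmFit, eBayes, two-sided), with Benjamini-Hochberg adjustment and a threshold of 0.05. Member values come from the fit over all probe sets. Values of the other lists come from the fit over genes, each taken as its probe set of highest mean. Alternatives were prior variance, scaling, intensity filters, array weights, the replicate block, left-out arrays and other probe set rules. Tested on simulated data for this comparison (31042 probe sets), the procedure found 98 of the 100 raised by a log2 difference of 1. It found all 100 raised by 2, with 18 false calls among the unchanged, and made 2 calls with no change put in. Low-protein values were only raised, so finding a fall was not tried. The raised probe sets were drawn at random. The median SD in low-protein livers was 0.29 over the members and 0.12 over all genes, so these shares found do not carry over to the members. The members and lists were chosen with earlier results of these data known. Named genes are all members, up to 4 per list by p, Nfe2l2, Keap1 and the 5 most like Nqo1; Tkt and Me1, and the marker genes Hbb, Alas2 and Alb, were chosen after their values were seen. Figures used matplotlib 3.10.9.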

Additional observations from a re-analysis of the deposited data

How the results depend on the processing

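No member probe set passed under any of the 15 alternatives run on probe sets. The member median stayed between 0.21 and 0.48 over 17 alternatives, and both ends came from leaving out 1 array, low-protein replicate 2 for the lowest and replicate 3 for the highest. Of 207 values of member probe sets under the alternatives 203 kept their direction. Direction turned for Gclm without low-protein replicate 3 (0.15) and without control replicate 2 (0.25; range -0.28 to 0.25 over the arrays left out), for Hmox1 without control replicate 1 (0.028; -0.17 to 0.028), and for the dimmer Txnrd1 probe set without low-protein replicate 2 (-0.027; -0.027 to 0.26). Nqo1 ran from 1.02 without low-protein replicate 2 to 2.57 without low-protein replicate 1. The counts over the whole array moved more. Against 41 probe sets and 26 genes as reported, array weights gave 102 and 43, the replicate block 6 and 14, and leaving out 1 array 16 to 109 probe sets and 12 to 54 genes, the highest without control replicate 3. A robust prior variance gave 103 probe sets and median centring 78. The labels do not say whether replicate numbers pair the arrays. Deviations of same-numbered arrays from their diet means correlated at -0.09, -0.03 and -0.10, and no array correlated best with its own number. Deviations within a diet cancel out over its arrays, so these values depend on each other and do not settle whether arrays were paired. The cause of the shifts in the counts was not tested. Arrays give no detection call here, so readings of dim probe sets, such as 2 of the 3 for Srxn1, have an unknown floor.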

Other observations

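Of the reported NRF2 targets in NADPH supply or the pentose phosphate pathway, Tkt and Me1 were chosen after their values were seen, and Tkt, Me1, Pgd and Taldo1 did not pass the test. Tkt, transketolase, read 10.61, 11.20 and 10.51 in low-protein livers and 10.22, 10.17 and 10.42 in control livers, with no overlap. Over all genes 12.8% lay wholly above the controls. The Tkt difference was 0.50 on the log2 scale (SE 0.178, adjusted p = 0.227, limma over genes). Me1, the cytosolic malic enzyme, had 0.66 (SE 0.249, adjusted p = 0.249) and 0.64 on its second probe set. Pgd read 8.20, 8.14 and 7.69 in low-protein livers and 9.07, 8.48 and 9.15 in control livers, and Taldo1 read 10.77, 11.08 and 10.50 in low-protein livers and 10.25, 10.07 and 10.28 in control livers. Tkt, Me1 and Taldo1 were highest on low-protein replicate 2, as were Nqo1, Gsr and Akr7a3.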
